A study of Arabidopsis thaliana with 74 samples.

Results

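AT5G38005 is an annotated noncoding RNA gene of Arabidopsis thaliana, and the epiRILs described here were chosen by its measured level. An epiRIL (epigenetic recombinant inbred line) descends from a cross of Columbia with a ddm1-2 mutant, so that its genome is a mosaic of normally methylated segments and segments inherited in a hypomethylated state. All 36 paternal epiRILs were ordered by that level. The 12 with the highest AT5G38005 level (the high class) were set against the 12 with the lowest (the low class), that is 24 of 36 epiRILs and of 74 libraries in all. The epiHybrids of the same 24 lines, which the ordering did not use, were then compared in the same way. An epiHybrid is the F1 of msCol plants pollinated by an epiRIL, msCol being a Columbia line made male-sterile by ms1, which sits in a Landsberg segment on chromosome 5. The 2 msCol libraries (lines 12 and 16) gave the maternal level. All plants were aerial rosettes harvested 27 days after sowing under long days, untreated, with 1 library for each line made from rosettes of 3 cultivation experiments pooled. Per the study, the loss of DDM1 was transient, in the ancestor of the epiRILs. The families had been selected for their leaf area performance in the hybrid. Levels are given as CPM, with every library brought to the same total, and 1 count equalled about 0.0245 CPM at a depth of 38.1 M to 42.2 M counts a library. Since a line has 1 library, the lines are the replicates and plant-to-plant spread is unknown.

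DDM1 is a chromatin remodeller that maintains DNA methylation over transposons and other repeats. Once its function is lost, methylation falls over the repeat-rich regions around the centromeres, and some silent loci become transcribed. Part of the hypomethylated state persists for generations after a functional DDM1 is restored, and it segregates with the chromosome segment that carries it. An epiRIL therefore receives such an active state together with linked loci. In an F1 the state comes from one parent only, so that 0.5 of the paternal level is the level of a paternal allele that keeps its activity beside a silent maternal allele.

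AT5G38005 lies on chromosome 5 in TAIR10.1 at 15155067 to 15156088 on the plus strand, in 2 exons that amount to 545 bases, and no annotated gene overlaps it. A stretch covering 29.5% of its exons matched 2 sites on other chromosomes at an identity of at least 95%, so part of its reads could be shared. The bases around its start are shown together with those of 3 genes of the comparison, because CG is one of the sequence contexts, beside CHG and CHH, in which ddm1 lines lose methylation. Each window runs 5′ to 3′ from 250 bases before to 50 bases after the annotated start, from the RefSeq TAIR10.1 assembly, with every CG in capitals. AT5G38010 is the next gene downstream, and AT5G38190 and AT5G29560 are genes described below that were higher in the high class.
AT5G38005 (chr5:15154817-15155116, plus strand): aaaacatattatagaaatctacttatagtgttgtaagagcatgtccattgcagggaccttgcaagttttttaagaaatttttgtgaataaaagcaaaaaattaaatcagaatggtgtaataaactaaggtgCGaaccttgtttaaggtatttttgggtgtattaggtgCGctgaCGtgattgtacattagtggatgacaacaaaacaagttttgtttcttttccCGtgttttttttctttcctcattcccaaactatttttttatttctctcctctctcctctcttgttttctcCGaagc
AT5G38010 (chr5:15157947-15158246, plus strand): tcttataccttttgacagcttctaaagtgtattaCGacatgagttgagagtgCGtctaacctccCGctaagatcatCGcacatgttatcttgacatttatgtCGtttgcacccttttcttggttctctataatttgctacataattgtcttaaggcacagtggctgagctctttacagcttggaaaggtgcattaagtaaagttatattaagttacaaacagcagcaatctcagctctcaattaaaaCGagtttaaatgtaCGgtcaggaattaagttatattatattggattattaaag
AT5G38190 (chr5:15233938-15234237, plus strand): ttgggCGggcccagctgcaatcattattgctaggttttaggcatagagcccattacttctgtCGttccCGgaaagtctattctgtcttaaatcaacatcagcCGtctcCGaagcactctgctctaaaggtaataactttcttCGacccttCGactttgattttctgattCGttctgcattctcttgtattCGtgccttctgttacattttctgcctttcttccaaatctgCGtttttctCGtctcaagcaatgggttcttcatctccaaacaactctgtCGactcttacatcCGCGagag
AT5G29560 (chr5:11191918-11192217, minus strand): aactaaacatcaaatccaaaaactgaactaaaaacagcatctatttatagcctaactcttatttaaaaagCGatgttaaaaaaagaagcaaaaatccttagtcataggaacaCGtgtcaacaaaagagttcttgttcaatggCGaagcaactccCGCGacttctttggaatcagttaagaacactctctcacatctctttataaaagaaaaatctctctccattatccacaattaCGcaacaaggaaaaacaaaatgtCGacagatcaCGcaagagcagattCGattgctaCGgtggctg
CG was searched as these 2 letters, which read the same on both strands and cannot overlap themselves, and 98.12% of the 19382 windows of genes tested hold at least 1. The AT5G38005 window holds 5, and 67.9% of those windows hold at least as many. The AT5G38010 window holds 7, the AT5G29560 window 10 and the AT5G38190 window 14, a number reached by 8.16% of the windows. These counts describe the sequence, and methylation was not measured in these libraries.

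In the high class AT5G38005 stood at 17.07 CPM in line 454, 16.56 in 462, 14.09 in 469, 11.74 in 241, 8.69 in 334, 5.41 in 419, 4.88 in 579, 4.81 in 79, 4.45 in 426, 4.19 in 503, 3.95 in 467 and 3.84 in 330. The first 5 lines stood well above the others, and from line 419 downwards the levels declined in small steps. In the low class it stood at 2.38 CPM in line 389, 2.16 in 176, 1.84 in 275, 1.84 in 211, 1.68 in 393, 1.67 in 379, 1.49 in 368, 1.48 in 340, 1.28 in 54, 1.14 in 50, 0.927 in 128 and 0.303 in 102. These values chose the classes and are not tested. The line just outside the high class, 41, had 3.81 CPM against 3.84 in line 330 just inside, and the line just outside the low class, 266, had 2.49 CPM against 2.38 in line 389 just inside. The exact binomial 95% intervals of neighbouring lines, which cover counting error only, were apart at 5 of the 35 steps: between 462 and 469, 469 and 241, 241 and 334, 334 and 419, and 128 and 102. Hence the order of the lines from 419 to 128 was not resolved step by step. The msCol libraries had 1.32 and 2.35 CPM, within the range of the low class.

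**Figure D1:**
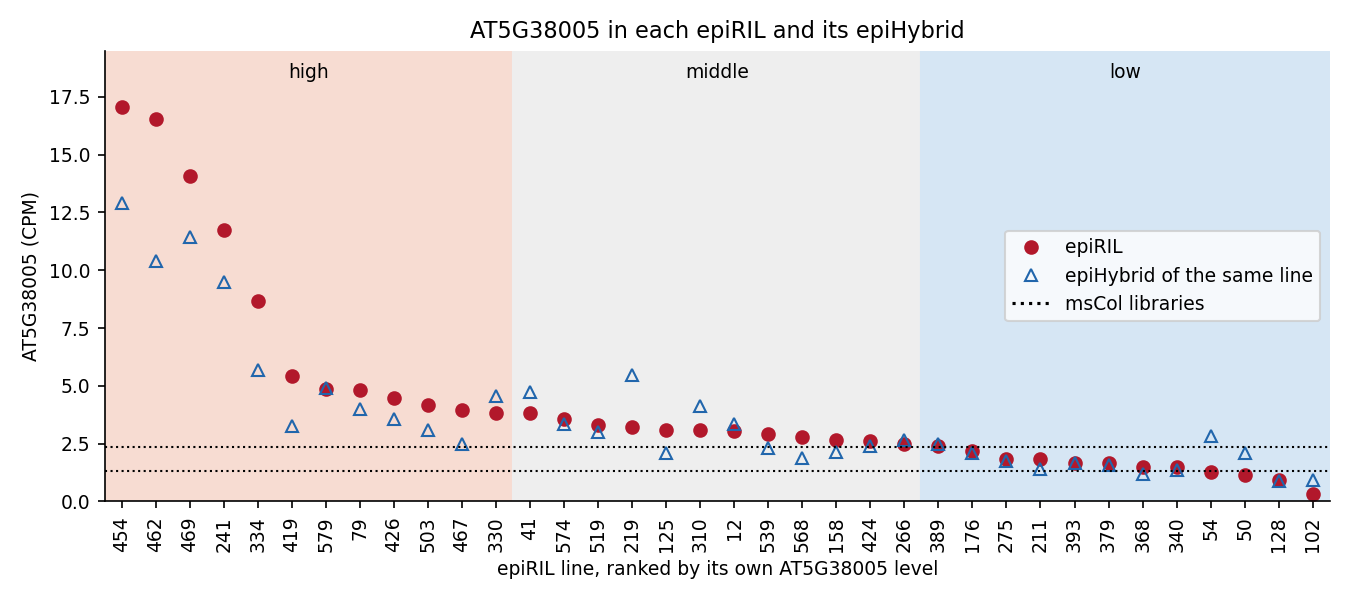
AT5G38005 level (CPM) in each epiRIL (circles) and in the epiHybrid of the same line (triangles), with lines ordered by the epiRIL level, shading for the high, middle and low class of 12 lines each, and dotted lines for the 2 msCol libraries. The lines 454, 462, 469 and 241 stand apart from the rest in both kinds of plant. Line 334 does so only among the epiRILs, as its epiHybrid had 5.70 CPM against 5.49 in that of middle line 219.

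In the epiHybrids AT5G38005 followed the class of the father. It had 12.91 CPM in the epiHybrid of line 454, 10.38 in 462, 11.43 in 469, 9.49 in 241, 5.70 in 334, 3.27 in 419, 4.88 in 579, 3.98 in 79, 3.58 in 426, 3.10 in 503, 2.48 in 467 and 4.57 in 330. In the epiHybrids of the low class it ranged from 0.892 to 2.83 CPM, and only 1 of the 12 epiHybrids of high fathers, that of line 467, lay within this range. The fold change between the classes was 1.87 ± 0.28 on the log2 scale (SE, adjusted p = 0.00562, edgeR's quasi-likelihood test with Benjamini-Hochberg adjustment). The adjusted p was 0.0759 with limma-voom, 0.0661 with 6 against 6 lines and 0.0817 without the 5 highest families. The ratio of epiHybrid to father in the 12 families of the high class had a median of 0.780 and ranged from 0.605 to 1.19. This ratio is a description, since the paternal levels chose the class and msCol expressed the gene too.

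The question of which other genes differed between the classes was answered by 26 of 19382 genes tested (0.134%) in the epiRILs, by edgeR's quasi-likelihood test at an adjusted p under 0.05. All 26 were higher in the high class. A lower level in the high class was called for no gene by edgeR, although 1846 genes had an unadjusted p under 0.05, DESeq2 called 11 lower and 85 higher, and limma-voom called none in either direction. Of the 26 genes, 20 lay on chromosome 5, where 0.444% of the 4509 genes tested were called, against 6 of 14873 genes (0.0403%) on the other chromosomes. The 20 were all within 6 Mb of AT5G38005, and none of the 3182 genes tested further away on chromosome 5 was called. They formed a stretch from AT5G27340, 5.52 Mb before AT5G38005, to AT5G41660, 1.502 Mb after it, and 17 of them lay before it on the map. The stretch spans the centromere of this chromosome. Only 1 of the 20, AT5G38190, was within 0.1 Mb of AT5G38005, among 20 genes tested in that window. No gene tested had its 12 high lines all above or all below its 12 low lines (0% in each direction).

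**Figure D2:**
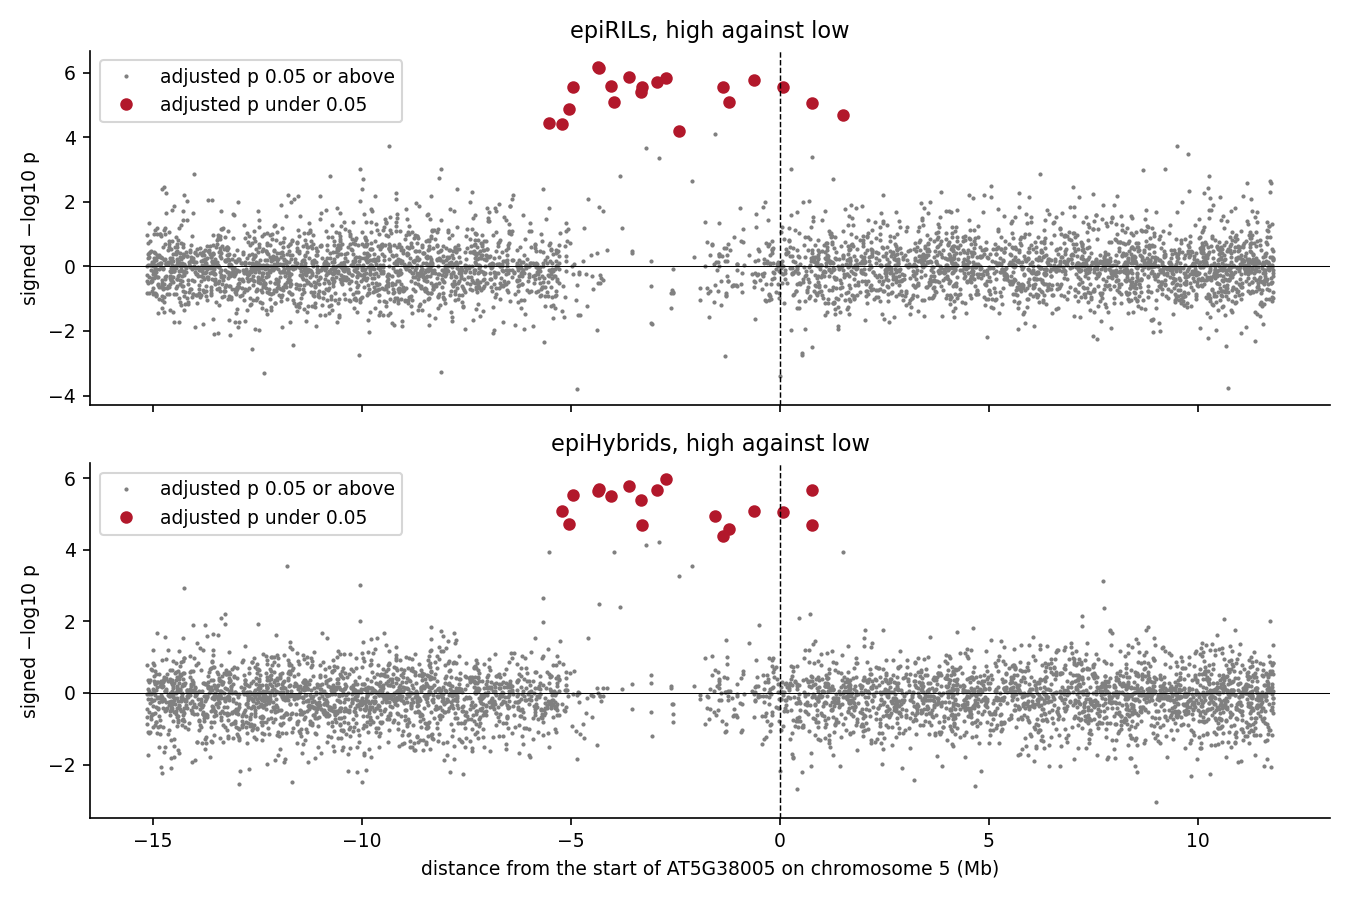
Signed −log10 p (positive where the high class is higher) of each gene tested on chromosome 5 against its distance from the start of AT5G38005 (Mb), in epiRILs (top) and epiHybrids (bottom), with called genes as red circles and AT5G38005 itself left out. All called genes on this chromosome are higher and within 6 Mb, most of them before it on the map (negative distances).

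The gene nearest to AT5G38005 that was called is AT5G38190, annotated as myosin heavy chain-like, which starts 79.1 kb after it. It had 34.7 CPM in epiRIL 454, 34.8 in 462, 53.8 in 469, 35.06 in 241, 29.97 in 334, 46.91 in 467 and 28.89 in 330. It had 0 counts in the other high lines, 419, 579, 79, 426 and 503. In the low class its level was at most 0.528 CPM, and 22 of the 27 counts of that class came from line 368. The high class thus split into lines with a strong signal and lines without any, and the latter overlapped the low class. The fold change was 8.60 ± 1.39 on the log2 scale (SE, adjusted p = 0.00509, edgeR's quasi-likelihood test). A fitted fold change against a group so close to 0 depends on the prior count. Near-identical sequence elsewhere in the genome covers 69.2% of the exons of AT5G38190, so its counts could hold reads of its copies.

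The same split ran through the block. AT5G36900, of 363 bases and 0.608 Mb before AT5G38005, had 11.03 to 14.78 CPM in the 7 lines 454, 462, 469, 241, 334, 467 and 330, and 0 counts in the 5 remaining high lines. Its highest level in the low class was 0.192 CPM, again in line 368 (log2 fold change 8.67 ± 1.37 SE, adjusted p = 0.00509 in edgeR). AT5G28823, 4.32 Mb before AT5G38005, was at 1 CPM or more in 7 high lines and had 2 counts over the whole low class, which makes the ratio of the summed counts, scaled to depth, 1008 (exact binomial 95% interval 279 to 8330, counting error only). Each of these genes was silent or nearly so in msCol.

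The extent of the block differed between lines. AT5G41660, at the end of the stretch beyond AT5G38005, had 85.34 CPM in line 454, 87.48 in 462, 63.49 in 469, 63.73 in 334 and 50.82 in 330, but 0.0505 in 241 and 0 in 467. AT5G39770, annotated as restriction endonuclease type II-like, had 12.36 to 15.62 CPM in the lines 454, 462, 469, 241, 334 and 330 and 0 in 467. Near the other end, AT5G28090 had 17.8 to 24.13 CPM in 6 high lines but 0.0734 in line 469. AT5G29560, related to caleosin, a protein of lipid bodies, had 156.7 CPM in line 469, 126.6 in 467, 97.1 in 462, 37.71 in 454, 20.8 in 334, 1.56 in 330 and 0.0505 in 241. Thus the end of the block beyond AT5G38005 was not shared by the 7 lines. The low AT5G29560 level in line 241 was a gap within the stretch, since AT5G29050 before it had 21.0 CPM and AT5G30360 after it 22.06 CPM. AT5G28090 in line 469 lay between AT5G04575 at 1.79 CPM and AT5G28235 at 17.54 CPM. However, AT5G04575 was also on in line 419, where no other gene of the block reached 1 CPM. AT5G27340, at that end of the stretch, had 0 counts in lines 469 and 467. Thus the end before AT5G38005 was not shared by the 7 lines either. Whether line 469 had a gap or a shorter block there was not tested. AT5G29560 varied by far more among expressing lines than AT5G36900.

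**Figure D3:**
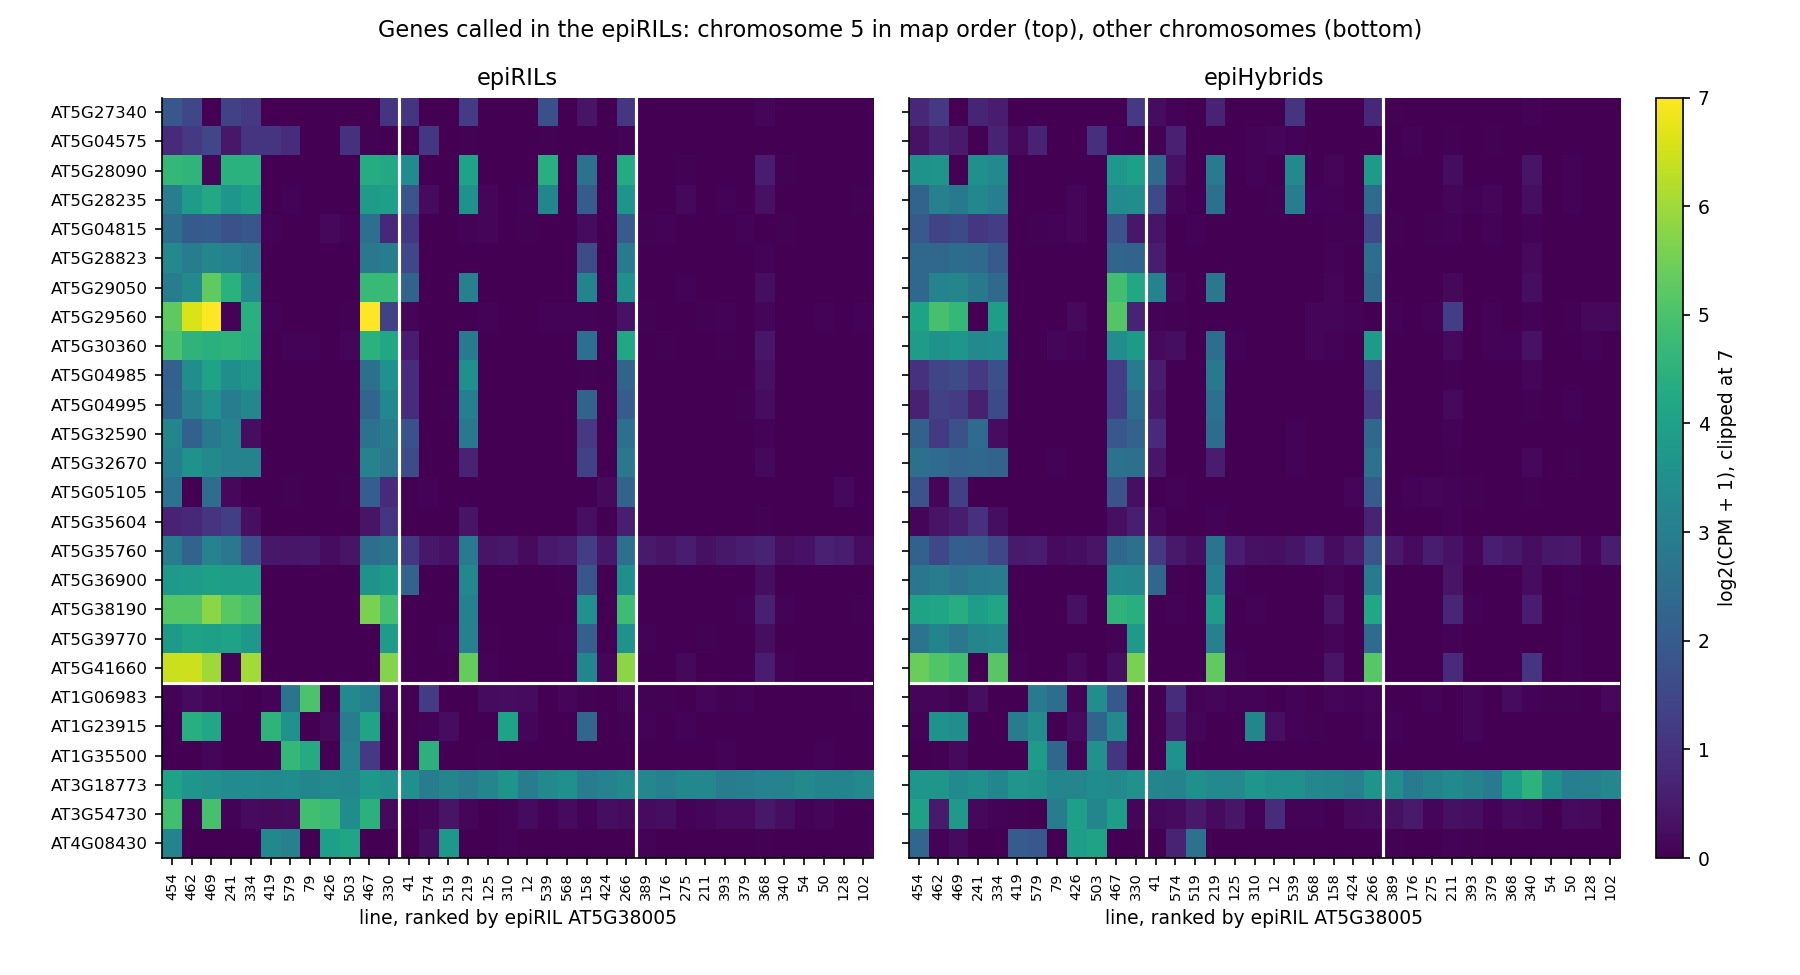
Level of the 26 genes called in the epiRILs, as log2(CPM + 1) clipped at 7, in the 36 epiRILs (left) and 36 epiHybrids (right), with lines ordered by the epiRIL AT5G38005 level, white lines between high, middle and low class, chromosome 5 genes in map order on top and genes of the other chromosomes at the bottom. The chromosome 5 block is on in 7 of 12 high lines and in some middle lines. In the 5 lines 419, 579, 79, 426 and 503 it is off, apart from AT5G04575 in some of them.

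Counted over the 20 chromosome 5 genes, 18 were at 1 CPM or more in line 454, 18 in 462, 18 in 469, 16 in 241, 17 in 334, 15 in 467 and 17 in 330. By contrast 1 of the 20 reached 1 CPM in line 419 and none did in 579, 79, 426 and 503. None reached it in any of the 12 low lines, which is no separate result, since the genes were called from these same libraries. Line 368 stood apart within the low class, with a count in 17 of the 20 genes but a summed level of only 3.99 CPM, where the other 11 low lines had 0.265 to 0.716 CPM. Summed levels in the strongly expressing high lines were 192.6 to 447.6 CPM. The calls varied with the low lines included: 14 genes were called without line 368, and 7 without the families 340 and 368. The part of the trace in this was not tested. Leaving out line 79 gave 42 calls. With a filter of 1 CPM in 12 of the 24 libraries, which 7 expressing lines cannot meet, no gene was called.

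The block was also on in lines with an intermediate AT5G38005 level. Of the middle lines, 266 had 17 of the 20 genes at 1 CPM or more at an AT5G38005 level of 2.49 CPM, 219 had 13 at 3.21 CPM, 158 had 13 at 2.65 CPM and 41 had 10 at 3.81 CPM. In turn, line 419 had 5.41 CPM of AT5G38005 and line 330 had 3.84 CPM, with 1 and 17 of the 20 genes at 1 CPM or more. The lines with the 5 highest AT5G38005 levels all expressed the block, but so did lines near the middle of the order. Comparing ranks 6 to 12 with the low class called 18 genes in the epiRILs, 17 higher and 1 lower, an alternative chosen after the data were seen. Only 8 of these 18 were among the genes called with all 12 high lines.

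The MIR854 loci were among the block. MIR854c (AT5G04985) and MIR854a (AT5G04995) are annotated microRNA genes, and the counts here are of reads of a long-RNA library at the hairpin locus, not of the mature 21-base RNA. The mature sequences of MIR854a, MIR854b, MIR854c and MIR854d are identical in TAIR10.1, shown in DNA letters with bases 2 to 8, the seed, in capitals.
MIR854a (chr5:11847721-11847741, plus strand): gATGAGGAtagggaggaggag
MIR854c (chr5:11838098-11838118, plus strand): gATGAGGAtagggaggaggag
MIR854c had 3.46 CPM in epiRIL 454, 9.98 in 462, 15.8 in 469, 10.27 in 241, 12.14 in 334, 4.84 in 467 and 11.07 in 330, with 0 counts in the other 5 high lines and at most 0.240 CPM in the low class. Its log2 fold change was 7.93 ± 1.33 (SE, adjusted p = 0.00578, edgeR). MIR854a was likewise higher (7.76 ± 1.27, adjusted p = 0.00509). Near-identical matches cover the whole of both loci, and each overlaps another annotated gene, so the assignment of reads to them is uncertain.

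Among the other genes of the block, AT5G28235 (an Ulp1 protease family member, a group that cleaves the SUMO modifier), AT5G32670 (with a START domain, which binds lipids), AT5G32590 and AT5G35604 (both myosin heavy chain-like) and AT5G30360 were all higher, with log2 fold changes between 6.51 and 8.81. AT5G28235 and AT5G32670 each overlap another annotated gene, and near-identical sequence elsewhere covers 99.1% of the exons of AT5G28235 (13 matches, 8 of them on chromosome 5) and 22.1% of those of AT5G32670, which leaves their counts uncertain. AT5G35760, related to beta-galactosidase, differed from the rest in having a low level in every line. It had 2.29 to 7.61 CPM in the 7 lines, 0.179 to 0.365 CPM in the 5 others and at most 0.576 CPM in the low class (log2 fold change 3.10 ± 0.56 SE, adjusted p = 0.00989 in edgeR). AT5G04575 had 0 counts in the low class, and its level in the high class was at least 111.8-fold higher than the 3 counts over the group that a count of 0 allows. It was an exception to the line pattern, since it was at 1 CPM or more in 4 high lines and the line 419 was among them. It also had 0.985 CPM in line 503 and 0.862 in 579, but 0.0246 in 467 and 0 in 330. The long noncoding RNA AT5G05105 was another exception. It had 5.38 CPM in line 454, 4.70 in 469 and 3.24 in 467, but 0 counts in 462 and 334.

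**Figure D4:**
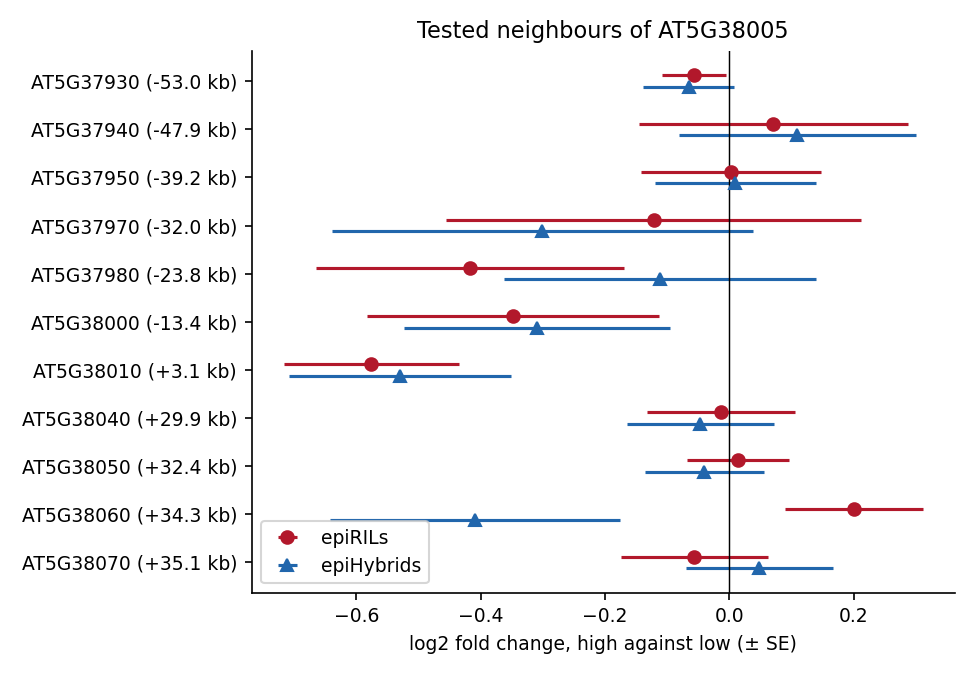
Log2 fold change (± SE) of high against low class for the 11 neighbours of AT5G38005 that were tested, in epiRILs (circles) and epiHybrids (triangles), ordered along chromosome 5 with the distance from the start of AT5G38005 in kb. None was called in either comparison, and AT5G38010 has the lowest value in both.

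Of the 10 nearest loci with a count on each side of AT5G38005, 11 passed the filter on low values. None was called, which at 0.134% of all genes tested says nothing about these 11. This stretch holds UDP-glycosyltransferase, methyltransferase and zinc-binding dehydrogenase genes. The gene next to AT5G38005, AT5G38010 (a UDP-glycosyltransferase family member, which transfers sugars to small molecules), starts 3.13 kb after it on the same strand. Its level was 1.81 to 4.45 CPM in the high epiRILs (median 3.21) and 3.08 to 7.10 CPM in the low epiRILs (median 4.60), with the classes overlapping. The fold change was -0.58 on the log2 scale (adjusted p = 0.106, edgeR) and -0.53 in the epiHybrids (adjusted p = 0.694). It did not pass the threshold in edgeR, whereas DESeq2 gave an adjusted p of 0.0222, and a fit over all 36 lines with AT5G38005 as a continuous term gave 0.03996. Its levels in msCol were 4.59 and 4.72 CPM. On the other side, AT5G38000, a zinc-binding dehydrogenase, had a log2 fold change of -0.35 (adjusted p = 0.589). The other 9 had log2 fold changes from -0.42 (AT5G37980, adjusted p = 0.563) to 0.20 (AT5G38060, adjusted p = 0.550) in the epiRILs, and AT5G38060 had -0.41 in the epiHybrids (adjusted p = 0.699). The AT5G38060 medians of the epiHybrids ran the other way, with 6.02 CPM in the high and 5.65 in the low class. In the low class its epiHybrids of lines 340 and 368 stood out at 16.79 and 13.67 CPM.

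Off chromosome 5, none of the 6 called genes was confined to the lines that expressed the block. Each was also at 1 CPM or more in 1 or more of those lines. AT1G35500, an uncharacterised protein, had 24.28 CPM in line 579, 18.96 in 79, 7.68 in 503 and 1.25 in 467 and at most 0.0979 CPM in the remaining high lines (log2 fold change 8.62 ± 1.74 SE, adjusted p = 0.0402 in edgeR). Lines 579, 79 and 503 were thus lines in which none of the 20 chromosome 5 genes reached 1 CPM. AT1G06983, a long noncoding RNA, was at 1 CPM or more in the same 4 lines, with 31.47 CPM in line 79. AT4G08430, an Ulp1 protease family member, had 7.97 CPM in line 454, 8.56 in 419, 7.31 in 579, 14.59 in 426 and 16.45 in 503 and was at most 0.0512 CPM in the low class (adjusted p = 0.0151). Of the 15 matches of its exons elsewhere in the genome at 95% identity or more, 14 were on chromosome 5. AT3G54730, annotated as a transcription repressor, was at 1 CPM or more in 6 high lines (454, 469, 79, 426, 503 and 467) and at most 0.360 CPM in the low class (adjusted p = 0.00984), and close copies cover 90.8% of its exons. AT1G23915 (adjusted p = 0.00578) had 20.03 CPM in line 462, 17.17 in 469 and 16.09 in 467. It also had 22.68 CPM in line 419, 11.01 in 579 and 6.77 in 503. Close copies cover 94.7% of its exons, with 6 of the 19 matches on chromosome 5.

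AT3G18773, a RING/U-box protein, was the only one of the 26 genes at 1 CPM or more in all 24 lines. Its level in the low class was 6.74 to 8.90 CPM, and that in the high class was 8.24 to 15.6 CPM. The log2 fold change was 0.42 ± 0.09 (SE, adjusted p = 0.0432, edgeR). It overlaps AT3G18775, and in the epiHybrids its fold change was -0.05 (adjusted p = 0.957). The medians there were 9.99 CPM in the high and 8.21 in the low class. In the low class the epiHybrids of lines 340 and 368 stood out at 22.17 and 14.16 CPM. The difference between the 2 kinds had an unadjusted p of 0.121 in the interaction fit.

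In the epiHybrids the classes of the fathers differed in 22 of 19383 genes (0.114%), all higher in the epiHybrids of high fathers. AT5G38005 is 1 of them. The count was 28 with DESeq2 but 0 with limma-voom, 0 with 6 lines a class, 4 with AT5G38005 as a continuous term and 1 with a filter of 1 CPM in 12 libraries (1337 genes had an unadjusted p under 0.05 in edgeR and 923 in limma-voom). Of the 26 genes called in the epiRILs, 19 were called here as well, which is 73.1% of the epiRIL list and 90.5% of the epiHybrid list without AT5G38005, and 25 had the same sign. The 2 comparisons share no library but share the paternal genomes, so the second is not independent evidence. The 2 genes called only in the epiHybrids, AT5G35375 and AT5G39775, lay on chromosome 5 as well, with adjusted p-values of 0.0534 and 0.107 in the epiRILs. AT5G39775 lies within AT5G39770 of the block, on the opposite strand, so its counts could hold reads of that gene. No gene differed in its high against low difference between epiHybrids and epiRILs in the interaction fit with family as a block (0 of 19382 genes called by edgeR, 519 at an unadjusted p under 0.05, lowest adjusted p 0.939).

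AT5G38190 had 15.67 CPM in the epiHybrid of line 454, 16.37 in 462, 19.69 in 469, 14.13 in 241, 16.63 in 334, 22.38 in 467 and 20.55 in 330. The epiHybrids were below their fathers in each of these families, and the log2 fold change between the classes was 6.58 ± 1.18 (SE, adjusted p = 0.0111, edgeR). Over the 120 pairs of a chromosome 5 gene and a high family with the father at 1 CPM or more, the ratio of epiHybrid to father had a median of 0.489 and ranged from 0.0796 to 1.127. This ratio is a description, since the paternal levels chose both the genes and the pairs. By family, the medians were 0.454 in 454, 0.491 in 462, 0.373 in 469, 0.490 in 241, 0.491 in 334, 0.638 in 467 and 0.677 in 330. The MIR854 loci were lower, with a median ratio of 0.189 for MIR854c and 0.221 for MIR854a, while family 330 had 0.577 for MIR854c. AT5G29560 had 0.343, and its interaction had an unadjusted p of 8.7e-05 that did not pass the adjusted threshold.

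**Figure D5:**
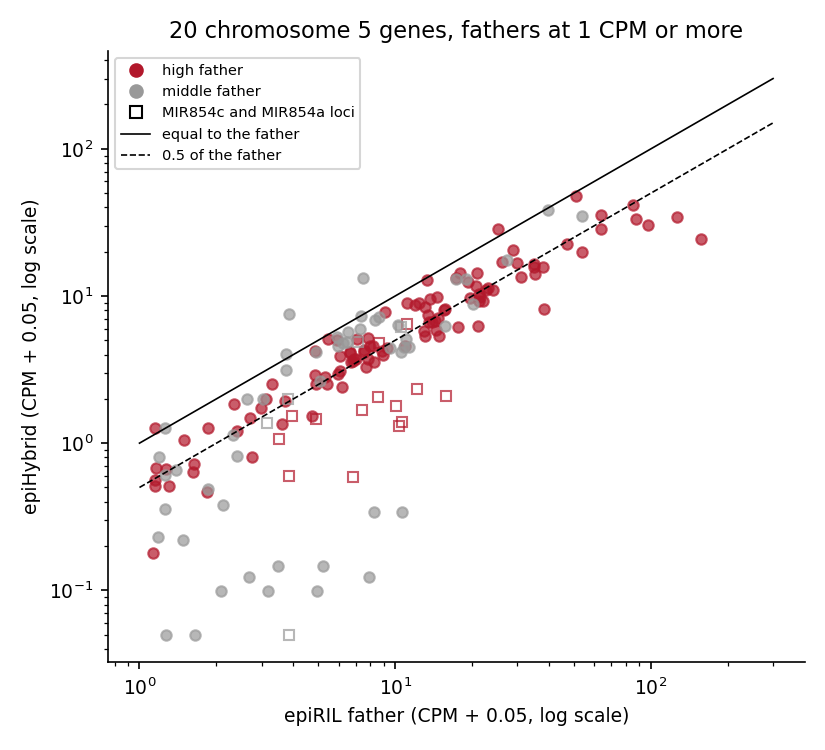
Level in the epiHybrid against that in its epiRIL father (CPM + 0.05, both axes logarithmic) for the 20 chromosome 5 genes wherever the father had 1 CPM or more, coloured by the class of the father, with lines of equality and of 0.5 of the paternal level and open squares for the MIR854 loci. The pairs of high fathers, which were chosen by the paternal level, have a median ratio of 0.489 and run from 0.0796 to 1.127. The low grey points belong to family 158.

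The middle family 158 departed from this pattern. Its epiRIL had 13 of the 20 genes at 1 CPM or more with a summed level of 56.69 CPM, while its epiHybrid had none, with a summed level of 1.33 CPM. The median ratio of epiHybrid to father was 0.0188 there, against 0.759 in family 219, 0.644 in family 266 and 0.393 in family 41. In family 41 the ratios ran from 0.158 to 1.99, and its epiHybrid had 5 of the 20 genes at 1 CPM or more where the father had 10. In the low class, the epiHybrids of lines 211 and 340 had counts in 18 and 16 of the 20 genes with summed levels of 4.496 and 3.467 CPM, although their fathers had 3 and 5 genes with a count. Without the families 340 and 368, 15 genes were called in the epiHybrids. In the msCol libraries 3 of the 20 genes had a count each, and the summed level was 0.129 CPM in each.

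Genes near silence in the mother were also counted without the genes called in either comparison, as a description with no test. Of genes below 0.1 CPM in both msCol libraries, those at 1 CPM or more in a line were counted on each chromosome. On chromosome 5 (2272 such genes) the high epiRILs had 3 to 18 (median 8.0) and the low epiRILs 2 to 11 (median 4.5), so the classes overlapped. In the epiHybrids the high class had 0 to 13 (median 6.5) and the low class 0 to 8 (median 3.0). On chromosome 2 the low epiRILs reached 46 such genes and the high epiRILs 11, with a median of 3.0 in both classes. The medians of the high and low epiRILs were 9.0 and 4.5 on chromosome 1, 5.5 and 3.5 on chromosome 3, and 3.5 and 2.0 on chromosome 4. A higher median in the high class was thus not particular to chromosome 5. Within 6 Mb of AT5G38005 (953 genes) the epiRIL medians were 4.5 in the high and 1.0 in the low class, with ranges of 0 to 12 and 0 to 3. Over the genes outside that window the medians were 36.0 in the high and 39.0 in the low class. These counts were chosen after the data were seen.

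The genes whose levels over the 36 epiRILs were most like that of AT5G38005, by Pearson's r of log2(CPM + 1), were AT5G04575 (r = 0.720), AT5G32670 (0.705), AT5G04815 (0.701), AT5G39775 (0.697), AT5G28823 (0.691), AT5G30360 (0.682), AT5G39770 (0.675), AT5G36900 (0.670), AT5G29560 (0.668) and AT5G35604 (0.667). All 10 are genes of the chromosome 5 stretch described above. By ranks the likeness was lower for each of them, with Spearman's rho from 0.364 (AT5G29560) to 0.693 (AT5G04575). The lines share linked segments, so these values describe the set of lines and carry no p. The gene with the lowest r, AT5G32470 (-0.721), a heme oxygenase-like protein 3.07 Mb before AT5G38005, had 19.75 to 27.8 CPM in the high and 24.86 to 29.53 CPM in the low epiRILs (log2 fold change -0.17, adjusted p = 0.417 in edgeR).

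Lists of genes for DNA methylation, defence, growth and flowering held no called gene. With 0.134% of all genes called in the epiRILs and 0.114% in the epiHybrids, that is not a result about lists of this size, and they are described by their medians. None of the 11 genes of DNA methylation maintenance, the 17 of RNA-directed DNA methylation and the 5 of DNA demethylation passed, with median log2 fold changes of -0.11, -0.12 and -0.21 in the epiRILs, where the median of all genes was -0.01. None of the 8 salicylic acid defence, 9 circadian clock, 5 sugar starvation and 7 cell division genes passed either. The 4 Rubisco small subunit genes, 3 of which lie on chromosome 5, had a median of 0.24 in the epiRILs and 0.05 in the epiHybrids. FT, the mobile flowering signal, had 2.89 to 11.64 CPM (median 5.60) in the high epiRILs and 1.78 to 5.54 CPM (median 3.54) in the low ones. Its log2 fold change was 0.78 with an adjusted p of 0.112, and in the epiHybrids it was -0.20 (adjusted p = 0.788). Of the 8 flowering time genes 7 were tested and none was called. FLC, the flowering repressor, did not pass the filter on low values. Of 6 loci known to vary with DNA methylation 3 were tested, without a call, since SDC, FWA and SUP were below the filter.

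Markers were checked against the labelled tissue. The summed level of 5 rosette leaf markers was 35060 to 46910 CPM in the high and 26610 to 53190 CPM in the low epiRILs. The 6 floral organ markers summed to 11.88 to 33.81 CPM and 10.61 to 28.05 CPM, the seed markers CRA1, SESA3 and OLEO1 were below 1 CPM in all, as were 4 of the 5 root markers. The remaining root marker, PYK10, had 5.94 to 33.52 CPM in the high and 5.35 to 22.88 CPM in the low epiRILs. None of the marker genes was called. The slope on log2 exon length of each library's deviation from the mean was -0.323 to 0.120 in the high and -0.0209 to 0.134 in the low epiRILs, and with this slope as a covariate 20 of the 26 genes were still called. The part of that slope in the other 6 was not tested.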

How the data were processed

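The authors deposited 1 table of raw read counts per gene (32833 genes, 74 libraries), which per the labels was made with Trim Galore, TopHat2 and featureCounts on TAIR10. Versions, strand use and the treatment of multi-mapping reads are not given in the sources used here. Total counts per library were 38130406 to 42206920. Members, gene lists and tests were chosen with earlier results of these data known.

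Genes at 1 CPM or more in at least 2 libraries (19383 genes) were kept, TMM factors were computed from all 74 libraries, both after the methods of the study, and the counts were fitted with the robust quasi-likelihood test of edgeR 4.0.16 (R 4.3.3), two-sided, BH-adjusted over genes, with the threshold at 0.05. AT5G38005 was left out of the adjustment in the epiRIL and interaction fits. DESeq2 1.42.0 and limma 3.58.1 were alternatives. Family was the block in the interaction, since an epiHybrid and its father share a line number. Their deviations from group means correlated by 0.428 ± 0.220 (SD, n = 24 families), above 0.1 in 22 of 24, against -0.0169 between families. Positions are from TAIR10.1 (32548 identifiers matched). Named genes were the 10 largest called changes per comparison, the 10 nearest loci on either side, the 10 most like AT5G38005 and members of the lists. Other called genes were named in addition, after their values were seen. The fit was tested on simulated data.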

Additional observations from a re-analysis of the deposited data

Results flagged for a closer look

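The 12 middle epiRILs were left out of the main comparison between classes and entered only alternative fits, such as that with 18 lines a class. Of these lines, 6 had genes of the chromosome 5 block at 1 CPM or more, where both msCol libraries had 0 of the 20. Line 266 had 17, line 219 had 13, line 158 had 13, line 41 had 10, line 539 had 3 and line 574 had 1 of the 20. The genes on in line 539 were AT5G27340, AT5G28090 and AT5G28235, near the end of the stretch farthest from AT5G38005, where AT5G28090 had 20.12 CPM. The one on in line 574 was AT5G04575, as far as its 4 genes with a count show.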

How the results depend on the processing

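No call of a named gene reversed under any alternative run. The 26 genes of the epiRIL comparison became 96 with the DESeq2 Wald test, 0 with limma-voom, 0 with a filter of 1 CPM in 12 libraries, 6 with 6 lines a class, 59 with 18 lines a class (6 of them shared with the 26) and 7 without families 340 and 368, a choice made after the data were seen. With AT5G38005 as a continuous term over all 36 lines, 4 of the 26 stayed called in the epiRILs and 22 did not. Leaving out 1 epiRIL gave 14 to 42. The 22 genes of the epiHybrid comparison became 0 with limma-voom, 1 with that filter, 0 with 6 and 44 with 18 lines a class, 4 with AT5G38005 as a continuous term and 7 with ranks 6 to 12 alone, and leaving out 1 epiHybrid gave 19 to 29. The interaction had 0 calls with and 0 without the replicate block. Within 1 Mb of AT5G38005, 3 genes were called in the epiRILs, against 1 within 0.1 Mb, 1 within 0.5 Mb, 6 within 2 Mb and 9 within 3 Mb. The causes of these changes were not tested, except that the filter removes genes expressed in fewer lines than it asks for. Ranking by TMM-scaled CPM changed 1 high line and 0 low lines.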
